A study of Mus musculus with 7 samples.

Results

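Transcripts of 9 inhibitory checkpoint genes, chosen by gene symbol from the 19589 genes of the table, were followed in splenic CD4+ cells. The 9 were Pdcd1, Ctla4, Lag3, Tigit, Btla, Cd160, Havcr2, Cd200r1 and Cd274, and all 9 were in the table. The last of these encodes a ligand, PD-L1, and the others encode receptors. Cells had been sorted as CD4+ from the spleens of C57BL/6 mice, and RNA was sequenced in 3 libraries from mice labelled RT and 4 from wild-type mice labelled WT. By the title and design text of the series, RT mice lacked Tet2 and carried the G17V form of RHOA. Tet2 encodes an enzyme that oxidises methylated cytosine in DNA, and G17V RHOA is a mutant form of a small GTPase, known from angioimmunoblastic T cell lymphoma. How Tet2 was deleted, which promoter drove the mutant RHOA, and the age and sex of the mice are not given in the labels. No treatment is named for either genotype.

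Inhibitory checkpoint receptors sit on activated T cells and lower the response to antigen. PD-1 and CTLA-4 bind ligands of the B7 family on antigen-presenting cells, LAG-3 binds MHC class II, and TIGIT competes with the activating receptor CD226 for the poliovirus receptor. BTLA and CD160 share the ligand HVEM. TIM-3, the product of Havcr2, is known from effector T cells and myeloid cells, and CD200R1 from myeloid cells and some T cells. High PD-1 with BTLA and TIGIT is a known trait of follicular helper T cells, and high CTLA-4 with TIGIT a trait of regulatory T cells.

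Depth divided the libraries into 2 sets, and both genotypes were in each. RT1, WT1 and WT2, called deep here, had 9208833 to 11435571 reads recovered in genes from the steps of the deposited RPKM values (reads scaled to gene length and library total). RT2, RT3, WT3 and WT4, called shallow, had 97663 to 112677. Levels are therefore given as RPM, reads per 1000000 recovered reads of the library. These are not scaled to gene length, so they compare libraries for a given gene. The exact 95% intervals (Clopper-Pearson) in the text cover counting error only. Tet2 itself stood at 113, 10.2 and 0 RPM in RT1 to RT3, against 150, 104, 37.9 and 36.8 RPM in WT1 to WT4, on 1292, 1 and 0 reads in RT and 1381, 1105, 4 and 4 in WT. A whole-gene value does not show a deleted part, so it does not check the labels.

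The defining markers Cd3e, Cd3d, Cd3g, Cd4 and Trac were found in every library, and their summed level was 2732, 7116 and 5955 RPM in RT1 to RT3 against 2705, 2613, 3321 and 3216 RPM in WT1 to WT4. Markers of other cells were not level across the libraries. A list of 8 B cell genes summed to 154 to 358 RPM in RT, 245 and 196 RPM in WT1 and WT2, and far more in WT3 and WT4 (1410 and 1553 RPM). A list of 7 macrophage and monocyte genes summed to 2263 RPM in RT1, 266 and 391 RPM in RT2 and RT3, 737 and 495 RPM in WT1 and WT2, and 1069 and 1048 RPM in WT3 and WT4. Plasma cell, dendritic cell and erythroid lists were highest in WT3 and WT4 as well, at 1325 and 1590 RPM, 492 and 487 RPM, and 274 and 312 RPM. In bulk RNA, fewer cells of a type and less RNA per cell cannot be told apart, and this holds for every level below.

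**Figure D1:**
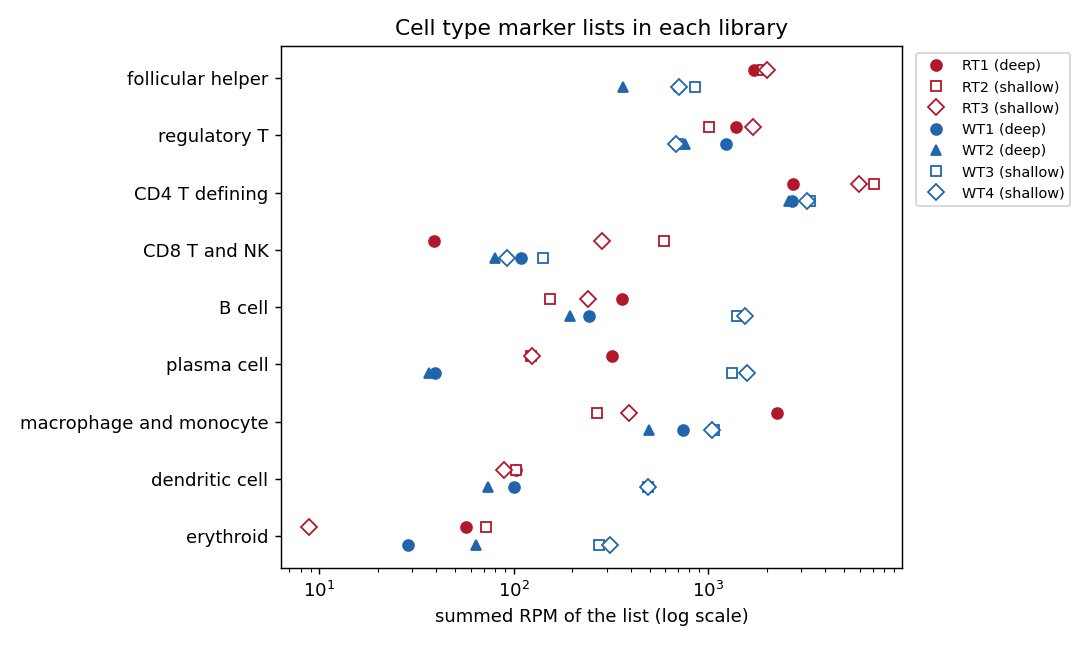
Summed RPM (log scale) of each cell type marker list in each library, RT in red above WT in blue, with filled symbols for deep and open symbols for shallow libraries. WT3 and WT4 held the highest B cell sums, 1410 and 1553 RPM, and the other 5 libraries held 358 RPM or less.

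Genes for 5 of the receptors, Pdcd1, Lag3, Tigit, Ctla4 and Btla, were higher in RT than in WT cells in a test of all 7 libraries that allowed for their set. The fitted rise ran from 2.16-fold for Btla to 7.48-fold for Lag3. Of the 9 genes, 7 were tested in the recovered reads, of which 5 rose, 0 fell and Havcr2 and Cd274 did neither at a limma voom adjusted p of 0.05. Across all 5910 genes tested, 9.39% rose and 8.34% fell. The median log2 fold change was 1.52 over the 7 genes tested and -0.03 over all. Cd160 and Cd200r1 had too few reads in the shallow libraries to enter this test. The calls in this test rest on RT1: without it, limma voom called 0 of the 9 genes and 0 of all genes. Pdcd1, Lag3, Tigit and Ctla4 then stood at log2 fold changes of 2.82 ± 0.97, 2.71 ± 1.29, 2.46 ± 0.84 and 1.90 ± 0.51 (SE), and Btla at 0.41 ± 0.47. At an unadjusted p under 0.05 that fit had Pdcd1, Tigit and Ctla4 higher, where 2.76% of genes were higher and 5.38% lower. In the shallow libraries alone, which also lack RT1, 4 of the 5 passed, where 2.32% of genes rose and 2.89% fell. That count holds under this read filter: with genes taken at 10 or more reads over all 7 libraries, limma voom on the shallow libraries called 0 of the 9 and 0 of 13181 genes, while 836 genes had an unadjusted p under 0.05 with a higher level in RT and 1203 with a lower one. There Pdcd1, Lag3, Tigit and Ctla4 had limma voom adjusted p-values of 0.160, 0.105, 0.0635 and 0.0903. In the deep libraries alone, with RT1 taken to vary as WT1 and WT2 do, limma voom called 0 of the 9, where 2.18% of genes rose and 0.914% fell. At an unadjusted p under 0.05 all 5 were higher there, where 10.6% of genes were higher and 8.46% lower.

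**Figure D2:**
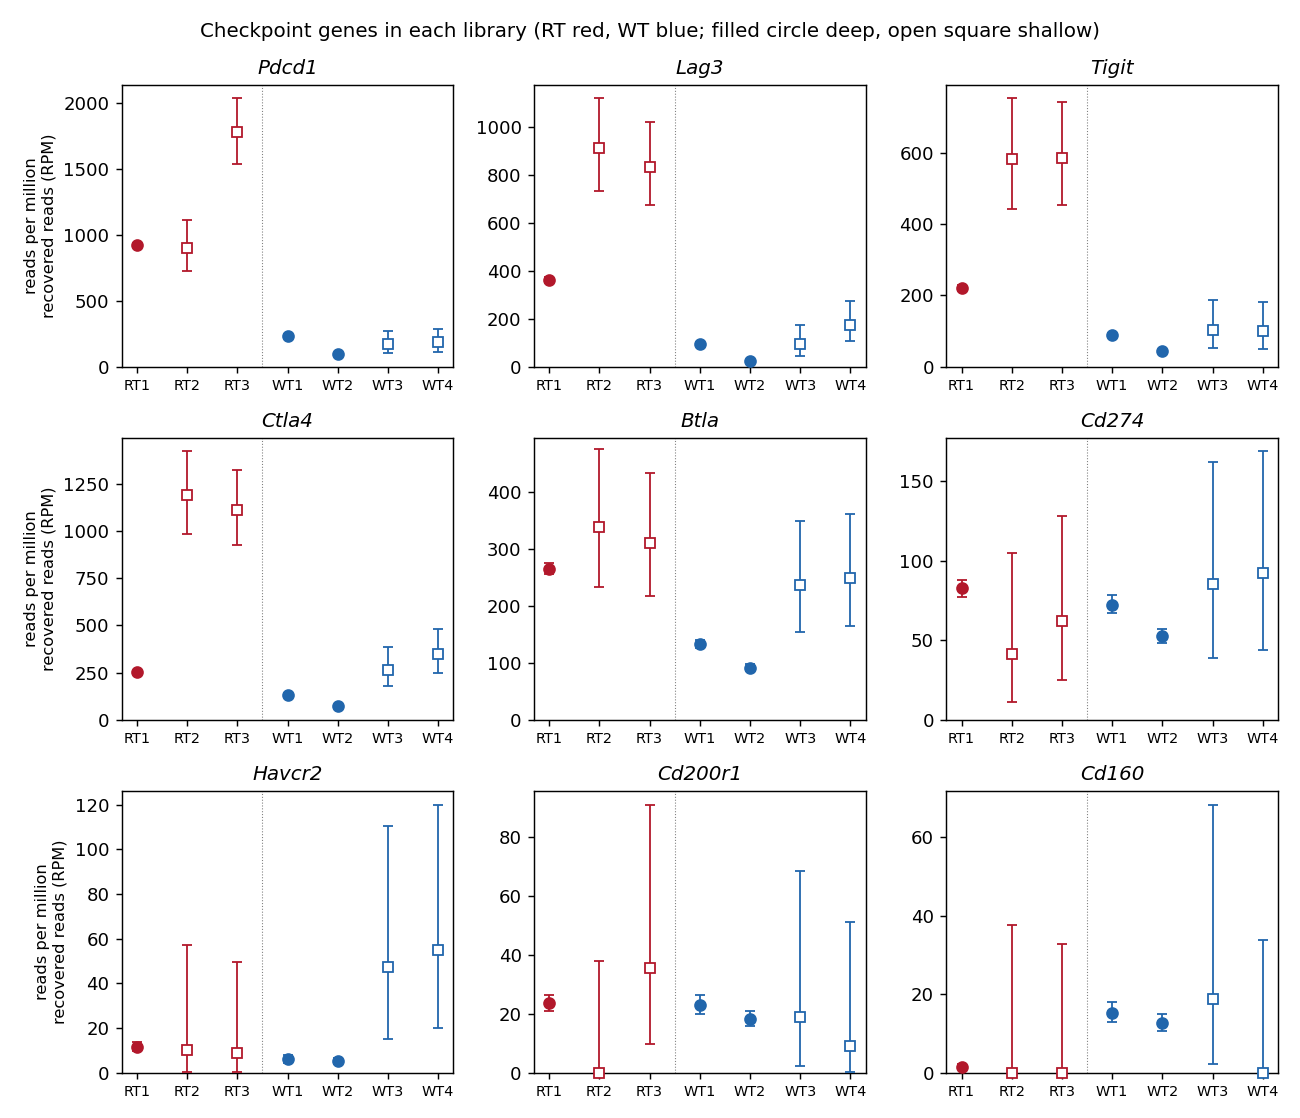
RPM of each gene in each library, RT (red) left of WT (blue), with exact 95% counting intervals; filled circles are deep and open squares shallow libraries. Pdcd1 stood at 901 RPM or more in the 3 RT libraries and at 234 RPM or less in the 4 WT libraries, while Cd160 stood at 1.49 RPM in RT1 against 15.3 and 12.7 RPM in WT1 and WT2.

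Pdcd1 encodes PD-1, the receptor that recruits the phosphatase SHP-2 to damp signalling by the T cell receptor and CD28 (chromosome 1, 94038305 to 94052553, mm10, minus strand). It stood at 921, 901 and 1775 RPM in RT1 to RT3, against 234, 97.5, 170 and 184 RPM in WT1 to WT4. Every RT library lay above every WT library, as for 5.57% of tested genes, while 5.74% had every RT library below every WT library. The log2 fold change was 2.65 ± 0.38 (SE; limma voom adjusted p = 0.00367). Within the sets it was 2.63 ± 0.51 (deep) and 2.82 ± 0.35 (shallow). RT3 (95% interval 1538 to 2038 RPM) lay above RT2 (723 to 1110 RPM), a ratio of 1.97, while Lag3, Tigit, Ctla4 and Btla had ratios of 0.915 to 1.004 between the same libraries. Pdcd1 alone made up 43.1%, 22.7% and 37.6% of the summed level of the 9 genes in RT1 to RT3, and 29.4%, 23.3%, 16.4% and 15.2% in WT1 to WT4.

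Ctla4 encodes the receptor that competes with CD28 for CD80 and CD86 (chromosome 1, 60887000 to 60915832, plus strand). Its level was 251, 1188 and 1109 RPM in RT1 to RT3, against 131, 72.7, 265 and 349 RPM in WT1 to WT4. The groups overlapped here, since RT1 lay below both WT3 and WT4. RT lay above WT within each set, as for 11.5% of tested genes. The log2 fold change was 1.52 ± 0.25 (limma voom adjusted p = 0.00643), with 1.38 ± 0.34 (deep) and 1.90 ± 0.27 (shallow) within the sets. Without the library set term it did not pass (2.28 ± 0.68, limma voom adjusted p = 0.0836).

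Lag3, whose product binds MHC class II and resembles CD4 in structure (chromosome 6, 124904361 to 124911705, minus strand), had the largest fitted rise of the 5 genes. It stood at 361, 911 and 834 RPM in RT1 to RT3, against 95.02, 24.0, 94.6 and 175 RPM in WT1 to WT4. No RT library overlapped with WT. The log2 fold change of 2.90 ± 0.51 (limma voom adjusted p = 0.00812) ranked 52 among the 5910 genes tested, and Pdcd1 ranked 70. Lag3 was also the member that varied most between wild-type libraries of similar depth, with WT1 3.96-fold above WT2. Leaving out either of these moved the estimate, to 2.07 ± 0.18 without WT2 and 3.63 ± 0.25 without WT1, and it passed in both.

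Tigit encodes a receptor for the poliovirus receptor PVR (chromosome 16, 43648867 to 43664146, minus strand). It stood at 220, 584 and 586 RPM in RT1 to RT3, against 88.3, 43.4, 104 and 101 RPM in WT1 to WT4, with no overlap. The log2 fold change was 1.91 ± 0.30 (limma voom adjusted p = 0.00516), and 1.86 ± 0.37 (deep) and 2.46 ± 0.37 (shallow) within the sets. Its share of the summed level of the 9 genes was 10.3% to 14.7% in RT and 8.33% to 11.1% in WT.

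Btla, which encodes a receptor for HVEM found on both T and B cells, showed the smallest rise of the 5 (chromosome 16, 45224315 to 45257670, plus strand). Its level was 265, 338 and 311 RPM in RT1 to RT3, against 132, 91.6, 237 and 248 RPM in WT1 to WT4. The groups did not overlap, but RT1 and WT4 lay close together, and the counting intervals of the shallow RT and WT libraries overlapped (216 to 475 RPM in RT2 and RT3, 153 to 361 RPM in WT3 and WT4). The log2 fold change was 1.11 ± 0.22 (limma voom adjusted p = 0.0130). Within the sets it was 1.28 ± 0.27 (deep) and 0.41 ± 0.32 (shallow) (limma voom adjusted p of the second = 0.536). WT3 and WT4 are the libraries with B cell markers at 1410 and 1553 RPM; the part of B cells in their Btla level was not tested.

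**Figure D3:**
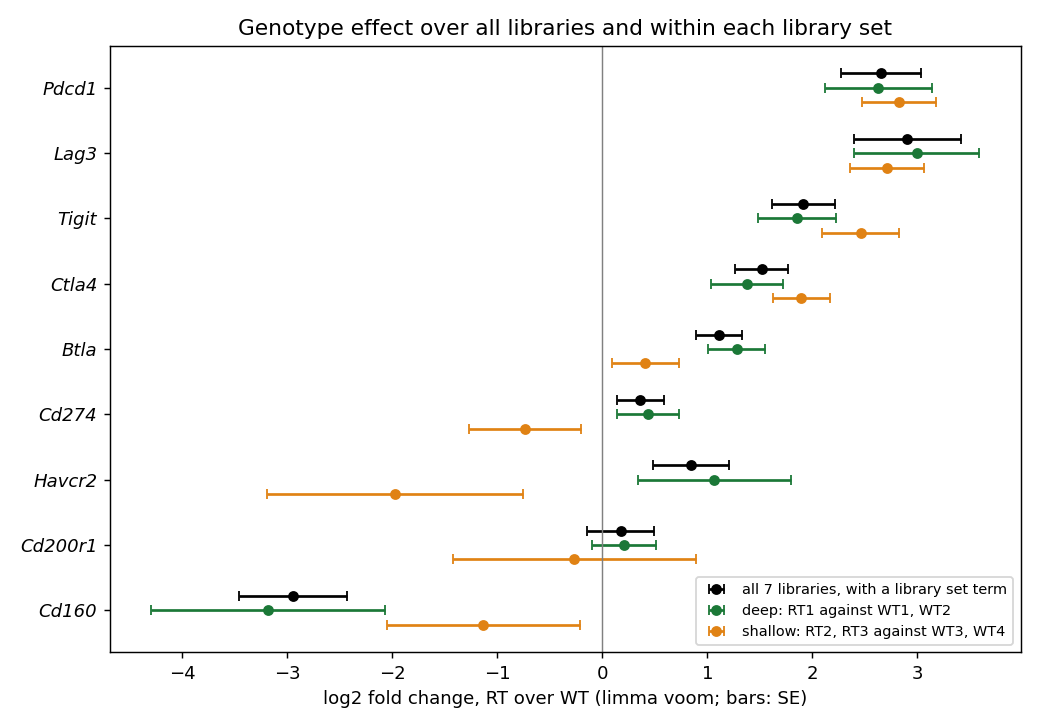
Log2 fold change of RT over WT for each gene (points, with SE bars) from limma voom over all 7 libraries (black), the deep set (green) and the shallow set (orange). Cd160 and Cd200r1 come from the fit that takes genes with 10 or more reads over all 7 libraries. Pdcd1, Lag3, Tigit and Ctla4 lay at 1.38 or more in each of the 3 fits, while Havcr2 and Cd274 lay on opposite sides of 0 in the 2 sets.

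The promoter sequences of genes that rose together are given for 4 of the 5, with each CG pair, the site at which cytosines are methylated and at which TET2 acts, in capitals. They are from RefSeq (GRCm38.p6, the mm10 build), 300 bases around the annotated start, 5′ to 3′; 7 of the 9 genes matched the RefSeq table, all but Lag3 and Cd200r1.
Pdcd1, chr1:94052504-94052803, minus strand: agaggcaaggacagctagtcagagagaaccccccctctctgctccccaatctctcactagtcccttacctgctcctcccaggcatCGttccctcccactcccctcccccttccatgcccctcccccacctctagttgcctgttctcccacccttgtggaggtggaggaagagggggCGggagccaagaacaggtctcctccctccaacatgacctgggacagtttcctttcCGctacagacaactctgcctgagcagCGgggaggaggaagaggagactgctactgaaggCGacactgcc
Tigit, chr16:43664135-43664434, minus strand: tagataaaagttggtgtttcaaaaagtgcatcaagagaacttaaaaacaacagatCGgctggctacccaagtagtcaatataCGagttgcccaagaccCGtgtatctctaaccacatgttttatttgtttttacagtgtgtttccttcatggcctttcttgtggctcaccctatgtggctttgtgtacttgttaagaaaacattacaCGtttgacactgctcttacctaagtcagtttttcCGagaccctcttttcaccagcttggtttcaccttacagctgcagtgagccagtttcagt
Ctla4, chr1:60908775-60909074, plus strand: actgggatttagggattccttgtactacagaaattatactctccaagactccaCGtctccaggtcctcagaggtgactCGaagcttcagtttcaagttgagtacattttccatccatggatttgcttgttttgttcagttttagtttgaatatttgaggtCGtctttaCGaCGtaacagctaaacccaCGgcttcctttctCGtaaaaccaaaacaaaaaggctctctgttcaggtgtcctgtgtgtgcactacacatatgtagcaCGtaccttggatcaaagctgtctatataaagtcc
Btla, chr16:45224087-45224386, plus strand: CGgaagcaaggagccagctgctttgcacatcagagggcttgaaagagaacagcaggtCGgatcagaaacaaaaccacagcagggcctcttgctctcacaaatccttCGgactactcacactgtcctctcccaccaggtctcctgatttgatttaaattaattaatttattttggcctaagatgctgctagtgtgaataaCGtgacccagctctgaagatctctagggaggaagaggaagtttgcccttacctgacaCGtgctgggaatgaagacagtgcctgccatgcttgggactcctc
The CG pair occurred 5 times in the promoters of Pdcd1, Tigit and Btla and 8 times in that of Ctla4, beside a median of 7 over 32851 promoters of the same length, of which 94.6% held at least 1. GGAAA, the core bound by NFAT factors, occurred 2 times in Pdcd1, 2 in Tigit, 1 in Ctla4 and 0 in Btla, while 61.3% of all promoters held it. TGANTCA, the AP-1 motif, was in none of the 4 and in 7.81% of all promoters. TGTGGT, the RUNX core, occurred 1 time each in Tigit and Btla and in 16.8% of all promoters. All motifs were searched on both strands and none contains another. Methylation was not measured.

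The other 4 genes did not follow this pattern, and they were low. In RPKM, which is scaled to length, Cd274 stood at 7.70 to 22.7 over all libraries, Havcr2 at 1.009 to 18.1, Cd200r1 at 0 to 16.2 and Cd160 at 0 to 6.36. Pdcd1 by comparison stood at 250 to 852 RPKM in RT and 26.8 to 85.2 RPKM in WT. By RPKM within a library, Pdcd1 or Tigit came first in RT, and Pdcd1 or Ctla4 in WT. Btla was below Pdcd1, Tigit and Ctla4 in every library, and Havcr2, Cd160 and Cd200r1 were below Btla in every library.

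Cd160 encodes a receptor for HVEM anchored in the membrane by a lipid and known from natural killer and CD8+ T cells (chromosome 3, 96798763 to 96829351, minus strand). It was lower in RT1 than in WT1 and WT2. It had 17 reads in RT1 against 141 and 135 reads in WT1 and WT2, or 1.49 RPM against 15.3 and 12.7 RPM. The ratio of RT1 to the pooled deep WT libraries was 0.107 (exact 95% interval 0.0614 to 0.174, counting error only). RT2 and RT3 had 0 reads, which allows up to 30.7 and 26.6 RPM at 3 reads (the exact 95% intervals in the plot of levels reach 37.8 and 32.7 RPM), and WT3 and WT4 had 2 and 0, so the shallow libraries could not show this difference at their depth. With the filter of 10 reads over all 7 libraries, the log2 fold change was -2.94 ± 0.51 (limma voom adjusted p = 0.0156), in a fit where 3.39% of 13181 genes fell and 5.58% rose. It was not called without RT1 (-1.11 ± 1.54), nor in the deep libraries alone (-3.18 ± 1.11, limma voom adjusted p = 0.418) or the shallow ones (-1.13 ± 0.92, limma voom adjusted p = 0.681). Cd8a, which marks CD8+ T cells, had 0 reads in RT1 and 128 and 47 in WT1 and WT2, and the list of 8 CD8 and natural killer genes summed to 38.7 RPM in RT1 against 109 and 80.0 RPM in WT1 and WT2; in RT2 and RT3 it summed to 594 and 284 RPM, against 142 and 91.9 RPM in WT3 and WT4. Eomes (184 and 79.9 RPM) and Nkg7 (410 and 195 RPM) made up nearly all of the sum in RT2 and RT3, where Cd8a, Ncr1, Klrb1c, Klrk1 and Gzma had 0 reads. The part of such cells in the Cd160 level was not tested. An exon of Pdzk1 on the other strand overlaps Cd160, and Pdzk1 had 3 reads in RT1 and 0 in the other 6 libraries.

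Havcr2, the gene for TIM-3 (chromosome 11, 46454935 to 46481255, plus strand), lay on opposite sides in the 2 sets, as did Cd274; 8.24% of tested genes were higher in RT in the deep set and lower in the shallow one. In the deep libraries it stood at 11.7 RPM in RT1 (134 reads) against 6.08 and 5.17 RPM in WT1 and WT2 (56 and 55 reads). In the shallow libraries it had 1 read each in RT2 and RT3 against 5 and 6 reads in WT3 and WT4, or 10.2 and 8.88 RPM against 47.3 and 55.1 RPM. Over all libraries the log2 fold change was 0.84 ± 0.37, which did not pass (limma voom adjusted p = 0.156). It entered this test through WT3 and WT4, which held 11 of its 13 shallow reads. On the RPKM scale its sign was opposite, at -0.64 ± 0.87, and -0.97 ± 0.61 with a library set term, and it passed in neither. The macrophage list moved with Havcr2 in both sets, being highest in RT1 among the deep libraries and in WT3 and WT4 among the shallow ones; its part in the result was not tested.

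Cd274, the gene for the PD-1 ligand PD-L1 (chromosome 19, 29367455 to 29388095, plus strand), did not pass. It stood at 82.6, 40.96 and 62.1 RPM in RT1 to RT3, against 72.3, 52.6, 85.2 and 91.9 RPM in WT1 to WT4, with a log2 fold change of 0.36 ± 0.22 (limma voom adjusted p = 0.300). The groups overlapped. Cd200r1, the receptor for CD200 (chromosome 16, 44765736 to 44794978, plus strand), stood at 23.5 RPM in RT1 against 23.0 and 18.2 RPM in WT1 and WT2, and had 0 and 4 reads in RT2 and RT3 against 2 and 1 in WT3 and WT4. With the wider filter its log2 fold change was 0.17 ± 0.32 (limma voom adjusted p = 0.740).

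**Figure D4:**
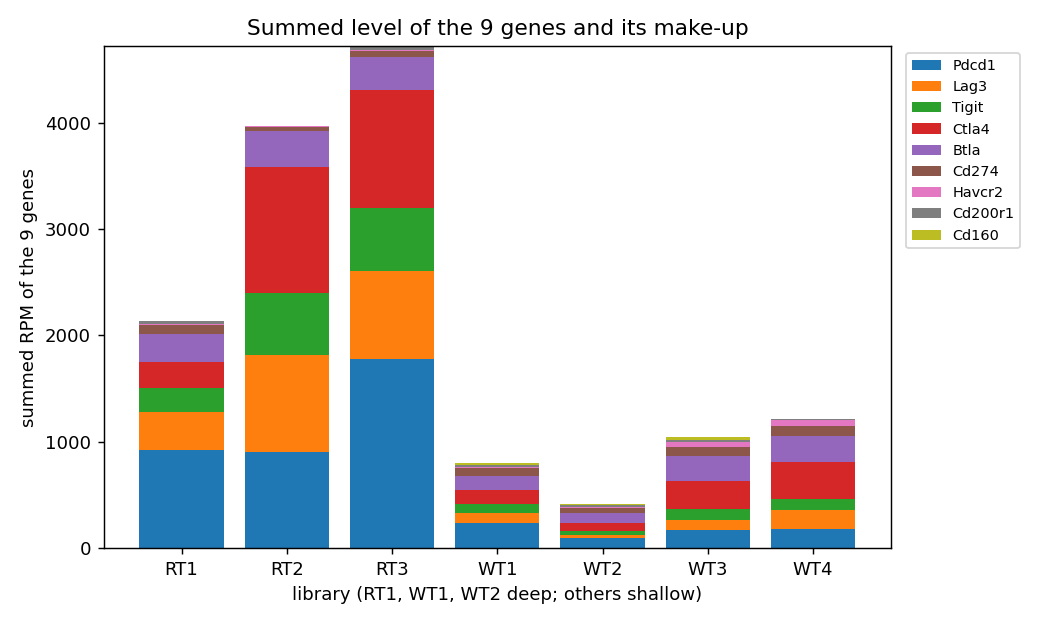
Summed RPM of the 9 genes in each library, RT left of WT, with the part of each gene in colour. The sum ran from 2137 to 4721 RPM in RT and from 418 to 1213 RPM in WT, and in the shallow RT libraries Ctla4 made up 29.9% and 23.5% of it, against 11.7% in RT1.

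The 9 genes together held 2137, 3973 and 4721 RPM in RT1 to RT3, against 798, 418, 1041 and 1213 RPM in WT1 to WT4. The sum of the T cell markers was also higher in the shallow RT libraries, 7116 and 5955 RPM in RT2 and RT3 beside 2732 RPM in RT1; its part in the gap was not tested. Set against Cd4 of the same library, Lag3 had 38.6, 49.7 and 41.4 reads per 100 Cd4 reads in RT1 to RT3, against 9.19, 2.44, 8.13 and 15.6 in WT1 to WT4. Pdcd1 had 98.3, 49.2 and 88.1 in RT, against 22.7, 9.92, 14.6 and 16.4 in WT, and Tigit had 23.5, 31.8 and 29.1 in RT against 8.54, 4.42, 8.94 and 9.02 in WT. For these 3 genes every RT library lay above every WT library on this scale, as for 2.37% of tested genes. Ctla4 had 26.7, 64.8 and 55.1 in RT, against 12.7, 7.40, 22.8 and 31.2 in WT, so RT1 lay below WT4. Btla had 28.3, 18.4 and 15.4 in RT, against 12.8, 9.32, 20.3 and 22.1 in WT, so that RT2 and RT3 lay below WT3 and WT4.

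On the deposited RPKM values as they stand, without regard to the library sets, 0 of the 9 genes passed in either direction. In that test on log2(RPKM + 1), 0.0416% of 9605 genes rose and 0.0104% fell, and the median log2 fold change was 1.04 over the 9 genes and 0.00 over all. Pdcd1 had 2.95 ± 0.61 (limma adjusted p = 0.173), Lag3 3.15 ± 0.84 (0.292), Tigit 2.56 ± 0.73 (0.322) and Ctla4 2.15 ± 0.94 (0.566). At an unadjusted p under 0.05 there were 4 higher and 1 lower, the last being Cd160 at -1.54 ± 0.68, where 4.53% of genes were higher and 4.16% lower. Mean RPKM was 511 ± 309 in RT (SD, n = 3) and 62.7 ± 26.1 in WT (SD, n = 4) for Pdcd1, and 285 ± 170 in RT and 35.6 ± 29.2 in WT for Lag3. With a library set term on the same scale, Pdcd1 (2.77 ± 0.35) and Tigit (2.26 ± 0.27) passed, both at a limma adjusted p of 0.0451.

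Other inhibitory receptors of T cells did not move as a block. The table held 14, of which 9 were tested. Among these 2 rose, 2 fell and 5 did not pass, where 9.39% of all tested genes rose and 8.34% fell. The median log2 fold change of the 9 was -0.29, beside -0.03 over all genes. Cd96, which like Tigit binds PVR, fell by 2.77 ± 0.23 on the log2 scale and stood at 15.7, 30.7 and 0 RPM in RT1 to RT3, against 97.3, 118, 104 and 73.5 RPM in WT1 to WT4. It met the filter on shallow reads mostly through WT3 and WT4, where it was high, so its call is a description and not a test. Cd5, a damper of T cell receptor signals, fell by 0.97 ± 0.18. Cd300a (2.48 ± 0.45) and the collagen receptor gene Lair1 (1.39 ± 0.32) rose, but both had the opposite sign in the shallow libraries, at -2.16 and -2.29. Each stood at 10.2 and 8.88 RPM in RT2 and RT3. In WT3 and WT4, Cd300a stood at 75.7 and 45.9 RPM and Lair1 at 56.8 and 73.5 RPM. Both thus met the filter on shallow reads mostly through WT3 and WT4, so the opposite sign is a description and not a test. These 2 receptors are also known from myeloid cells, and RT1 had the highest macrophage list; the part of such cells was not tested. Pecam1 (-0.29 ± 0.15) and Cd6 (-0.42 ± 0.25) did not pass, and the sign of Cd6 was not stable. Cd6 passed without RT3 (-0.63 ± 0.14, limma voom adjusted p = 0.0395), but was at 0.21 ± 0.46 without RT1 and 0.20 in the shallow libraries.

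The table held 17 genes for ligands of the receptors, Cd274 included, and 8 were tested. Of these, 2 rose, 2 fell and 4 did not pass (median -0.01), where 9.39% of all tested genes rose and 8.34% fell. Cd200, the ligand of CD200R1 and a surface marker of follicular helper cells, rose by 1.39 ± 0.31 and was at -0.16 in the shallow libraries. Hmgb1, a nuclear protein that also binds TIM-3, rose by 0.69 ± 0.17, and lost its call without RT3 or without WT4 (0.65 and 0.66, limma voom adjusted p = 0.0623 and 0.0622). Pvr, the ligand shared by TIGIT and CD96, fell by 0.85 ± 0.19 and Lgals9, which encodes a galectin that binds TIM-3, by 0.83 ± 0.19. Tnfrsf14, the gene for HVEM, did not pass at 0.49 ± 0.44, and passed without WT2 (1.16 ± 0.19, limma voom adjusted p = 0.00449).

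Among the signalling partners and competitors, 18 of 20 genes were tested. Of the 18, 3 rose, 1 fell and 14 did not pass (median 0.13), where 9.39% of all tested genes rose and 8.34% fell. Ptpn11, which encodes the phosphatase SHP-2 that binds the tail of PD-1, rose by 1.16 ± 0.25 and stood at 692, 451 and 533 RPM in RT1 to RT3 against 325, 214, 369 and 404 RPM in WT1 to WT4. Its log2 fold change was 0.34 ± 0.48 without RT1. Zap70, the kinase on which PD-1 signalling acts, rose by 1.08 ± 0.18, and Icos, an activating relative of CTLA-4, by 1.42 ± 0.32. Icos lost its call without RT3, WT3 or WT4, with limma voom adjusted p-values of 0.0581, 0.0566 and 0.0560. Dok2, an adaptor that restrains T cell receptor signals, fell by 0.97 ± 0.20, with 0.11 in the shallow libraries. Ptpn22 (0.91 ± 0.28) and Dok1 (0.45 ± 0.16) did not pass, and Ptpn22 passed without WT1 (1.25 ± 0.15, limma voom adjusted p = 0.00129).

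Transcription factors known to drive checkpoint genes or T cell exhaustion had a median of 0.90, and 0.96 (deep) and 0.73 (shallow) within the sets. The table held 16, of which 14 were tested. Among these 5 rose, 2 fell and 7 did not pass, where 9.39% of all tested genes rose and 8.34% fell. Tox2, a relative of TOX that acts in follicular helper cells, rose by 2.52 ± 0.29. It stood at 234, 215 and 160 RPM in RT1 to RT3 against 55.5, 29.4, 75.7 and 18.4 RPM in WT1 to WT4. Batf, an AP-1 family factor, rose by 1.94 ± 0.23, Tox, a regulator of the exhausted state, by 1.5 ± 0.21, and Maf by 1.38 ± 0.24. For each of these 4 genes every RT library lay above every WT library, as for 5.57% of tested genes. They were named for their small p-values in these same libraries, so the separation follows in part from the choice. Bach2, a repressor that keeps T cells from effector fates, fell by 2.19 ± 0.20. It stood at 39.0, 0 and 26.6 RPM in RT1 to RT3 against 184, 172, 28.4 and 110 RPM in WT1 to WT4, so RT1 lay above WT3. It met the filter on shallow reads mostly through WT, where it was high, so its call is a description and not a test. Irf4 (1.13 ± 0.45) and Prdm1 (1.40 ± 0.58) did not pass. Both passed without WT1, at 1.60 ± 0.37 and 2.33 ± 0.23 (limma voom adjusted p = 0.0210 and 0.000649). Irf4 turned to -0.52 ± 1.44 without RT1, and was at -0.53 in the shallow libraries. Without WT1, 8 genes of this list rose, where 757 of 5910 genes tested rose and 550 fell. Without RT1 none of the genes of these 4 lists was called.

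**Figure D5:**
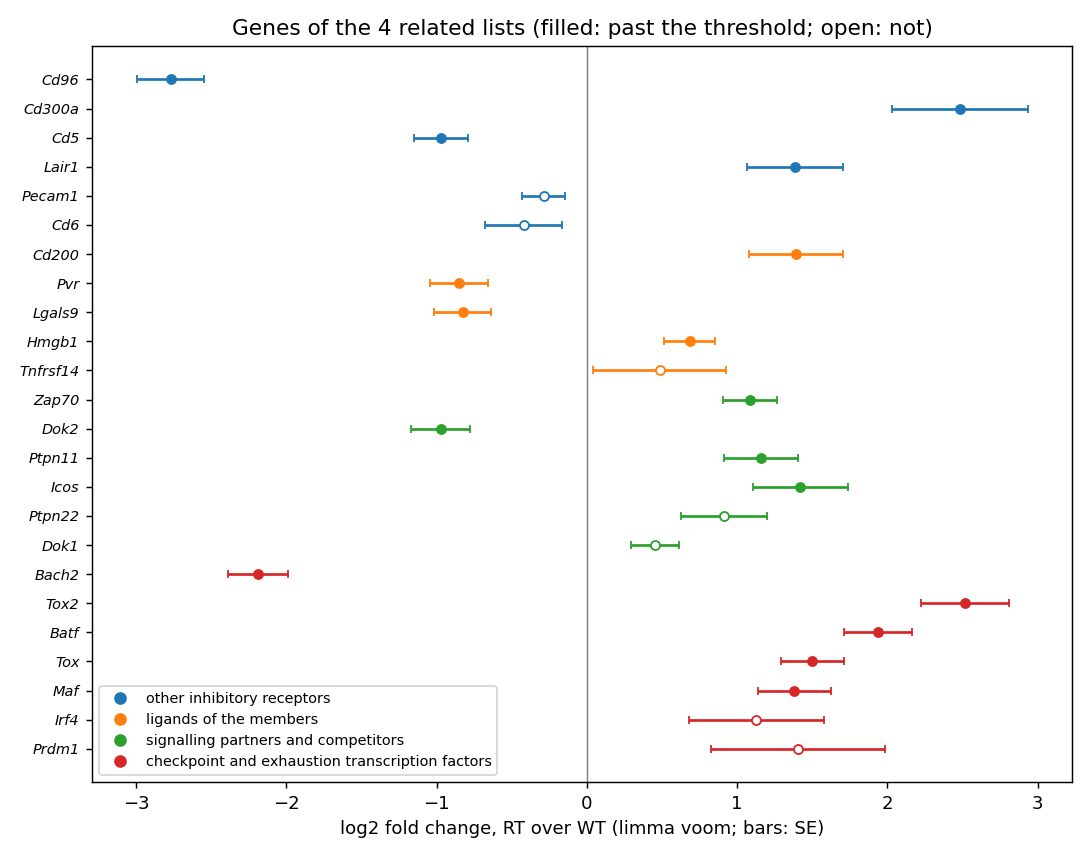
Log2 fold change of RT over WT (points, with SE bars) from limma voom over all 7 libraries for the genes named from the 4 related lists, filled where past the threshold and open where not. Tox2 at 2.52 and Cd300a at 2.48 lay highest and Cd96 at -2.77 lowest.

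Follicular helper and regulatory T cell markers were set beside the receptors, because both cell types carry several of them. The 9 follicular helper markers summed to 1720, 1905 and 2015 RPM in RT1 to RT3, against 702, 365, 852 and 708 RPM in WT1 to WT4. Of the 9, 8 rose and Sh2d1a did not pass (0.60 ± 0.29), where 9.39% of all tested genes rose and 8.34% fell. Within the 8, Pou2af1 stood at a log2 fold change of 0.21 ± 0.81 and Cd200 at -0.16 ± 1.16 without RT1. The others of the 8 stood at 0.76 to 3.19 in that fit. Ascl2, among the 8, had 8 and 2 reads in RT2 and RT3 and 0 in WT3 and WT4. Il21, also among the 8, had 15 and 16 reads in RT2 and RT3 and 0 and 6 in WT3 and WT4. Both met the filter on shallow reads through RT, where they were high, so their calls are no support. With 1 library left out the count was 0 without RT1, 6 without WT3 or WT4, 8 without WT2 and 9 without WT1. Without RT2 or RT3 only 8 were tested, of which 6 and 5 rose. Bcl6, the lineage regulator, rose by 1.99 ± 0.19. The 8 regulatory T cell markers summed to 1392, 1003 and 1695 RPM in RT1 to RT3, against 1233, 757, 700 and 680 RPM in WT1 to WT4. Of 5 tested, 1 rose (Nrp1), 1 fell (Il2ra) and 3 did neither. Nrp1 lost its call without any of the RT libraries, WT3 or WT4, and Il2ra lost its call without RT1 and was not tested without WT4. Foxp3, their defining factor, stood at 132, 277 and 772 RPM in RT1 to RT3 against 156, 108, 142 and 119 RPM in WT1 to WT4. RT2 and RT3 thus lay above every WT library, and RT1 below WT1. Its log2 fold change was 0.32 ± 0.35 (limma voom adjusted p = 0.566), and 1.83 ± 0.77 without RT1 (limma voom adjusted p = 0.597). RT2 and RT3 were also the libraries with the highest Ctla4 and Tigit, but both are shallow and RT1 is deep. The part of either cell type in the receptor levels was not tested.

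The genes whose pattern over the libraries was most like that of the 9 genes together were Cxcr4, Rtn3, Plcg1, Dusp4 and Cyfip1. Likeness was the Pearson r between log2(RPM + 10) of a gene and log2 of the summed RPM, each centred on its set, over the 7 libraries and among 5821 genes, and it ran from 0.992 to 0.998. The libraries share genotype and depth, so this is a description. Cxcr4, a chemokine receptor, stood at 624, 973 and 1029 RPM in RT1 to RT3 against 264, 135, 284 and 303 RPM in WT1 to WT4. Dusp4, which encodes a phosphatase of MAP kinases, stood at 134, 51.2 and 53.3 RPM in RT1 to RT3 against 40.6, 18.1, 9.46 and 9.19 RPM in WT1 to WT4.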

How the data were processed

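CD4+ spleen cells were sorted and total RNA was made into libraries with an Illumina kit (labels' protocols). The authors deposited RPKM values in a single table, with 1 column for each library. The submitters' processing notes name the build mm10. Neither an aligner nor a counting tool is given in the sources used here. Coordinates and exon lengths are from GENCODE M21, matched by symbol.

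The read total behind each library (105763 to 121659 shallow, 18566233 to 21800352 deep) was found from the steps of the RPKM values, of which 78.9% to 83.9% of those under 100 reads came out whole within 0.01 reads with annotated lengths. Other genes took the length that gave whole reads (tolerance 0.003), 797 of them a separate length in each set. A gene with 0 reads may have up to 0.262 to 0.326 RPM in deep and 26.6 to 30.7 RPM in shallow libraries, counting 3 reads as the limit.

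Recovered reads were fitted with limma 3.58.1 (voom) in R 4.3.3, with genotype and library set as terms, for genes with 10 or more reads over the shallow libraries. RPKM values were fitted as log2(RPKM + 1) with limma (trended prior) and genotype alone, keeping genes that reached 1 RPKM in 3 libraries; that scale understates changes of low genes. P-values are two-sided and adjusted over all genes tested by Benjamini-Hochberg. Alternatives were another pseudocount, filters, size factors, the library set term, a replicate block, each set alone, WT3 and WT4 summed, and leaving out each library. The interaction of genotype and set was added after seeing the data. Code was tested on simulated data. From each of the 4 related lists, up to 5 genes past the threshold and 2 others with the smallest p are named. Pdzk1 and the other genes named singly from the cell type marker lists were named after their values were seen. Among the latter are Bcl6, Foxp3, Nrp1, Il2ra, Ascl2, Sh2d1a, Cd8a, Eomes and Nkg7. The members and lists were chosen with earlier results of these data known.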

Additional observations from a re-analysis of the deposited data

Results flagged for a closer look

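Havcr2 and Cd274 had opposite directions in the deep and shallow libraries, in every library of each set. Havcr2 was higher in RT1 than in WT1 and WT2 and lower in RT2 and RT3 than in WT3 and WT4. The difference of the genotype effects, deep minus shallow, was 3.03 ± 0.84 on the log2 scale. It was computed after the opposite directions were seen, and Havcr2 passed the filter of 10 shallow reads through WT3 and WT4, where it was high, so the difference is a description and not a test. Pooled by set, its ratio of RT to WT was 2.10 among deep libraries (exact 95% interval 1.62 to 2.72). Among shallow ones it was 0.185 (0.0200 to 0.850), on 2 reads in RT against 11 in WT. Cd274 had the same pattern, with a difference of 1.17 ± 0.83, likewise a description. Its pooled ratios were 1.34 (1.23 to 1.46) and 0.590 (0.254 to 1.31). Of all 5910 genes tested, 8.24% had this pattern of RT above WT in the deep and below WT in the shallow libraries.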

How the results depend on the processing

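The 5 genes called in the recovered reads were called with median-of-ratios size factors, both other filters, WT3 and WT4 summed, and the replicate block with the library set term (1113 genes called there, 5 of the 9). The count of the 9 called was 3 without the library set term, 0 in the deep libraries alone, 4 in the shallow ones, and 0 to 5 with 1 library left out, the 0 being without RT1. Over all genes, 1048 were called, 500 without the set term, 183 deep, 308 shallow and 0 to 1327 with 1 left out. On RPKM, 5 genes were called; 0 with a pseudocount of 0.1, 0 with no filter, 0 with the replicate block, 26 with the set term (2 of the 9), and 0 to 15 with 1 library left out (0 of the 9, or of the 8 tested without WT1, WT2 or WT3, where Cd160 fell under the filter). Deviations from the genotype means had correlations of 0.43, -0.18 and 0.18 between the RT and WT libraries of replicate numbers 1, 2 and 3. RT1 and WT1 are both deep, RT3 and WT3 both shallow, and RT2 and WT2 differ in depth. The library set was not removed, so these values cannot show whether the numbers pair the samples.

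Directions turned for genes that did not pass. In the recovered reads, leaving out 1 library gave -1.97 to 0.97 for Havcr2, -0.73 to 0.53 for Cd274 and -0.19 to 0.30 for Cd200r1, each lowest without RT1; shallow libraries alone gave -1.98, -0.73 and -0.27. Havcr2 was not tested without WT3 or WT4, where it fell under the read filter. On RPKM, leaving out 1 library gave -1.29 to 0.76 for Cd200r1 and -0.39 to 0.090 for Cd274, above 0 without RT2 for Cd200r1 and without WT3 (0.051) or WT4 (0.090) for Cd274. The replicate block gave 0.090 for Cd274. Over all 7 libraries RPKM gave -0.64 for Havcr2, -0.13 for Cd274 and -0.39 for Cd200r1, where the recovered reads gave 0.84, 0.36 and 0.17. The cause was not tested. In shallow libraries, depth limits what Cd160, Cd200r1 and Havcr2 can show.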

Other observations

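Wild-type libraries of like depth differed in the level of these genes. All 9 stood higher in WT1 than in WT2, by 1.18-fold for Havcr2 to 3.96-fold for Lag3, while 51.4% of all tested genes did. Pdcd1 was 2.40-fold and Tigit 2.03-fold higher in WT1. The sum of the follicular helper markers was 702 RPM in WT1 and 365 RPM in WT2, and that of the regulatory T cell markers 1233 and 757 RPM. In the second sum, Ikzf2 (545 and 270 RPM) and Nrp1 (248 and 102 RPM) had the largest gaps. Foxp3 (156 and 108 RPM), Ikzf4 (45.5 and 35.5 RPM) and Lrrc32 (54.0 and 46.4 RPM) were also higher in WT1. Il2ra (95.6 and 96.3 RPM) and Tnfrsf18 (70.8 and 70.5 RPM) were about level, and Gpr83 (17.8 and 28.6 RPM) was lower in WT1.

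Among the 5 genes that rose, RT2 and RT3 stood at different multiples of RT1. RT2 and RT3 are shallow and RT1 is deep, so differences between RT samples and between library sets cannot be told apart. In WT, Ctla4 was also higher in the shallow libraries, at 265 and 349 RPM in WT3 and WT4 against 131 and 72.7 RPM in WT1 and WT2. Ctla4 was 4.74-fold above RT1 in RT2 and 4.43-fold in RT3. Lag3 was 2.52-fold and 2.31-fold above RT1, and Tigit 2.66-fold in RT2 and 2.67-fold in RT3. Btla was 1.27-fold and 1.17-fold above it. Pdcd1 was at 0.978 times RT1 in RT2 and 1.93 times in RT3.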
